A study of Homo sapiens with 8 samples.

Results

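The translation factors are the proteins that bring a ribosome to an mRNA and carry it along the message, and their mRNAs are described here in KM-H2, a Hodgkin lymphoma cell line. Members were the array probes that stood well above background in 4 or more of 8 channels and whose gene symbol starts with EIF1, EIF2, EIF3, EIF4, EIF5, EIF6, EEF1 or EEF2, with the Argonaute genes EIF2C1 to EIF2C4 and EIF5A2 left out. The array held 114 probes for 64 such genes, and 108 probes for 63 genes met the rule, of 22538 probes of the whole array that did so. Of these, 104 probes for 62 genes also gave Cy3 and Cy5 signals within 2-fold of each other in every sample, of 17912 such probes in all, and counts below are over these 104 probes. The symbols also catch regulators, namely kinases, binding proteins and methyltransferases of the factors.

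The cells had been transduced with the empty retroviral vector pMSCV-PIG (EV) or with a sponge (miR-155-sp, called sponge cells below), a transcript whose sites capture miR-155, and GFP+ cells had been sorted from both. From each population, total RNA (T) and the RNA precipitated with an antibody against Argonaute 2 (Ago2-IP), the protein that miRNAs guide to their target mRNAs, were compared on 2-color arrays, to find mRNAs bound by Ago2 and those whose binding depends on miR-155. There were 4 groups with 1 RNA sample each, labelled once with Cy3 and once with Cy5, so no difference below has a replicate check and no test was made. Beside a mean, brackets give the array with IP labelled in Cy5 and T in Cy3, then the dye-swapped array, and these show technical spread only.

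Signals are normalized log2 intensities, IP/T is the ratio of the IP to the total RNA signal of the same population, and quantile normalization makes it relative to all probes and not an absolute amount of bound RNA. The Hodgkin lymphoma markers were all retained (9 of 9 probes, 6 genes). Of the markers of other cells, 2 of 4 T-cell probes were retained (CD2 and 1 probe of CD3E). So were 2 of 3 myeloid probes (CD14 and CSF1R) and 1 of 6 epithelial probes (KRT8). CSF1R and this KRT8 probe were above background in all 8 channels, with log2 signals of 11.2 and 9.57 in EV total RNA. CD3D, LYZ, EPCAM and KRT18 were not retained. Mature miR-155 was not measured in the files used here, so the action of the sponge could not be checked from them, and no IP with a control antibody was analysed. In gene set analysis of its Hodgkin lymphoma lines the study saw no clear depletion of miR-155 targets with the sponge. It also reports a small number of probes with a 2-fold lower IP enrichment. Most of its selected targets had a mildly lower enrichment, from which it proposes that endogenous miR-155 also targets them in these lines. The study proposes that the sponge did not capture all miR-155. The cells are sorted populations of 1 line.

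In cap-dependent initiation, the eIF4F complex binds the mRNA cap through eIF4E, unwinds the leader through the helicase eIF4A and recruits the small ribosomal subunit through the scaffold eIF4G. That subunit carries eIF1, eIF1A, eIF3 and eIF5 and the initiator tRNA, which eIF2 delivers with GTP, while eIF2B recharges eIF2 and kinases that phosphorylate its alpha subunit stop the cycle. The subunits join with the help of eIF5B, eEF1 then brings each aminoacyl-tRNA, and eEF2 moves the ribosome by a codon. MiRNAs repress translation and shorten the life of mRNAs, and eIF4A2, the 4E-transporter EIF4ENIF1 and the cap-binding protein eIF4E2 have all been discussed in connection with this repression.

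The mature miRNA that the sponge captures is shown because every comparison with sponge cells rests on it. The seed (bases 2 to 8) is in capitals, and the RefSeq position is chr21:25573983-25574006 on the plus strand of GRCh38.p14.
hsa-miR-155-5p: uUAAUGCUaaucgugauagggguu
Of the 62 factor genes, 4 (6.45%) hold an annotated miRNA gene, against 4.48% of 9397 retained protein-coding genes. These are EEF1G with MIR6747, EIF3C with MIR6862-2, EIF4A2 with MIR1248 and EIF4H with MIR590. The miRNAs of EIF4A2 and EIF4H are shown because both host genes are described below, at chr3:186786675-186786701 for miR-1248 and chr7:74191213-74191234 for miR-590-5p (plus strand, GRCh38.p14).
hsa-miR-1248: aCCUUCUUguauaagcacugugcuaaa
hsa-miR-590-5p: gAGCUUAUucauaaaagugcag
Neither seed is that of miR-155-5p.

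Most factor mRNAs were neither strongly enriched in nor strongly depleted from the Ago2-IP fraction. In EV cells the IP/T ratio was between 0.5 and 2 for 87 of 104 probes (83.7%), where the same range held 72.3% of all retained probes. It was at least 2 for 9 probes of 7 genes (8.65%; background, here the share of all retained probes, 14.8%), namely EIF4EBP2, EIF4A2, EEF1AKMT4, EIF1AD, EIF4G2, EIF5 and EIF1AX. It was at most 0.5 for 8 probes of 7 genes (7.69%, background 12.9%), namely EIF3L, EIF4B, EIF2S2, EEF1D, EEF1A1, EIF1AD and EIF2AK4. All 9 enriched probes passed 2 in both dye orientations (8.65% of factor probes, background 12.3%), but 4 of the 8 depleted probes passed 0.5 in both (3.85%, background 7.81%). Over all retained probes, 2199 of 2645 enriched and 1399 of 2310 depleted probes did so, thus also more often on the enriched side. The median log2 IP/T was -0.34 (all probes -0.24), and the SD over the factor probes was 0.851 against 1.1 over all probes. On the lower side, 60 probes (57.7%, background 51.6%) had a ratio below 1 in both orientations, and 31 (29.8%, background 32.6%) a ratio above 1. In sponge cells 84 probes (80.8%, background 70.3%) lay between 0.5 and 2, 11 (10.6%, background 15.6%) at 2 or above and 9 (8.65%, background 14.1%) at 0.5 or below. The factor probes were bright, with 97.1% well above background in all 8 channels against 75.0% of all retained probes, and the part of brightness in the narrow range was not tested. With normexp background correction the order against the background turned: the factor probes at 2 or above made up 7.41% (all probes 5.99%) with loess and Aquantile and 7.48% (6.64%) with quantile normalization, and those at 0.5 or below 1.85% (1.65%) and 3.74% (2.63%). Under both, EIF1AX, EIF4B, EIF2S2 and EIF2AK4 and the lower EIF1AD probe named here were no longer past 2-fold. The depleted EEF1A1 probe was not past it with normexp, loess and Aquantile, with a common median or with Cy3 labellings alone. The depleted EEF1D probe was not past it with normexp, loess and Aquantile or with IP in Cy5 alone. EIF4EBP2, EIF4A2, EIF4G2, EEF1AKMT4, EIF3L, the enriched EIF5 probe and the higher EIF1AD probe were past it under all 13 alternatives that give a value per probe.

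**Figure D1:**
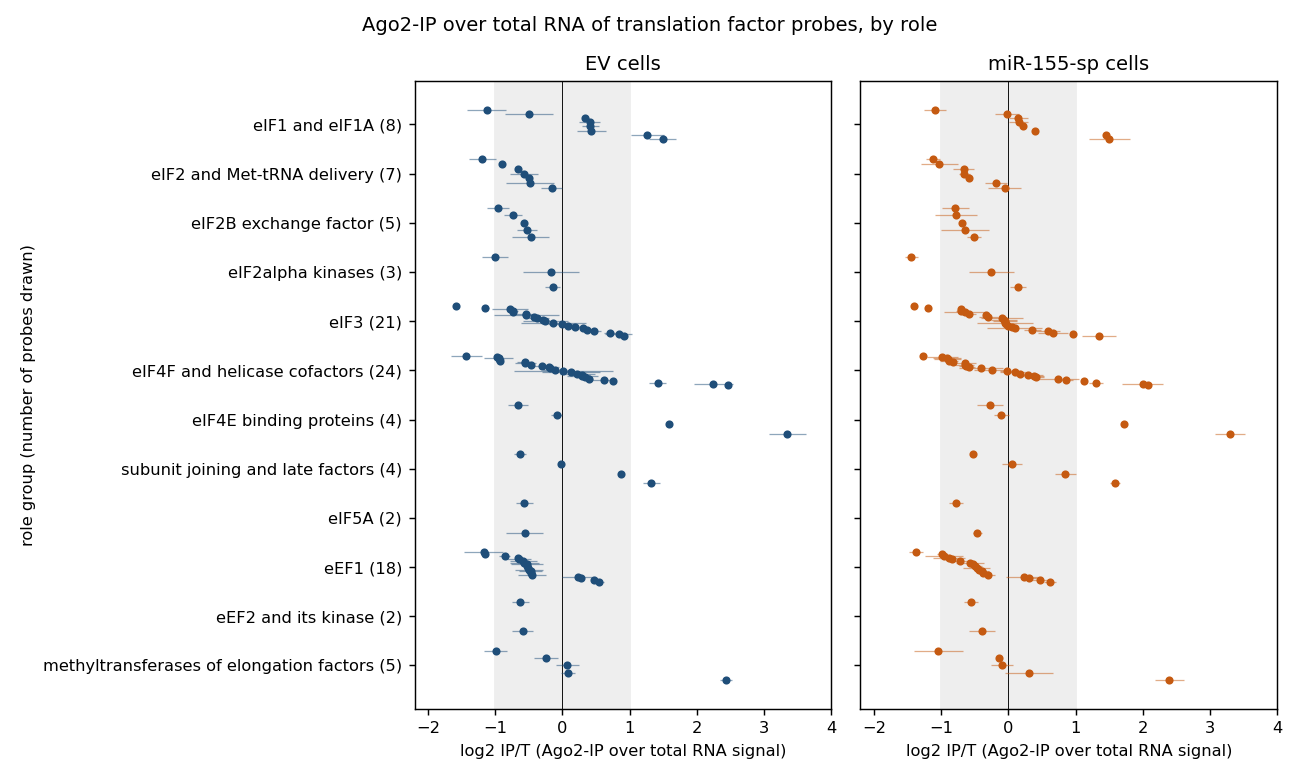
Log2 IP/T (x axis) of 103 retained factor probes by role group (y axis, number of probes drawn in brackets), in EV cells (left) and sponge cells (right). Points are means of both labellings, horizontal lines join the values of both dye orientations, and the grey band spans 0.5 to 2 as a ratio. EIF4EBP2, EIF4A2 and EEF1AKMT4 stand to the right of the band in both populations, and all probes of eIF2 and eIF2B stand left of 0 in EV cells.

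The highest ratio of the family belonged to EIF4EBP2, which encodes a 4E-binding protein, a repressor that keeps eIF4E from eIF4G until mTOR phosphorylates it. Its probe A_23_P115922 gave log2 signals of 13.66 (Cy3) and 13.31 (Cy5) in EV total RNA and 16.92 and 16.72 in the EV Ago2-IP. In sponge cells the signals were 13.72 and 13.45 in total RNA and 16.98 and 16.80 in the Ago2-IP. Every IP signal lay far above every total RNA signal. The IP/T ratio was 10.1 in EV cells (8.37 and 12.3) and 9.86 in sponge cells (8.45 and 11.5). A second probe, A_24_P4387, gave 3.01 (3.09 and 2.92) and 3.30 (3.37 and 3.24), so both probes showed enrichment but differed in its size.

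The related repressor EIF4EBP1 showed no such difference between fractions. Its log2 signals were 14.03 and 14.02 in EV total RNA and 13.84 and 14.03 in the EV Ago2-IP, and 13.86 and 13.97 against 13.76 and 13.86 in sponge cells. The fractions overlapped, and the IP/T ratio was 0.940 in EV and 0.931 in sponge cells. EIF4ENIF1, the transporter that carries eIF4E to the nucleus and to P-bodies, had ratios of 0.631 (0.699 and 0.570) and 0.829 (0.949 and 0.724).

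The helicase genes of eIF4A differed in the same way. EIF4A2 probe A_23_P121250 gave log2 signals of 12.79 and 12.72 in EV total RNA and 15.21 and 15.23 in the EV Ago2-IP, and in sponge cells 12.67 and 12.56 against 14.69 and 14.71. The IP/T ratio was 5.52 in EV cells (5.43 and 5.61) and 4.24 in sponge cells (4.12 and 4.37). The other EIF4A2 probe, A_32_P110751, gave 4.73 (3.87 and 5.80) and 3.99 (3.24 and 4.91). The fractions did not overlap for either probe.

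EIF4A1, which encodes the other cytoplasmic eIF4A helicase, was measured by 4 probes with much the same ratio. Their IP/T ratios were between 1.17 and 1.27 in EV cells and between 1.07 and 1.33 in sponge cells. For probe A_23_P137103 the log2 signals were 14.74 and 14.73 in EV total RNA and 15.14 and 14.91 in the EV Ago2-IP. EIF4A3, a helicase of the same family that sits in the exon junction complex, had ratios of 0.883 (0.834 and 0.934) and 0.665 (0.625 and 0.707).

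**Figure D2:**
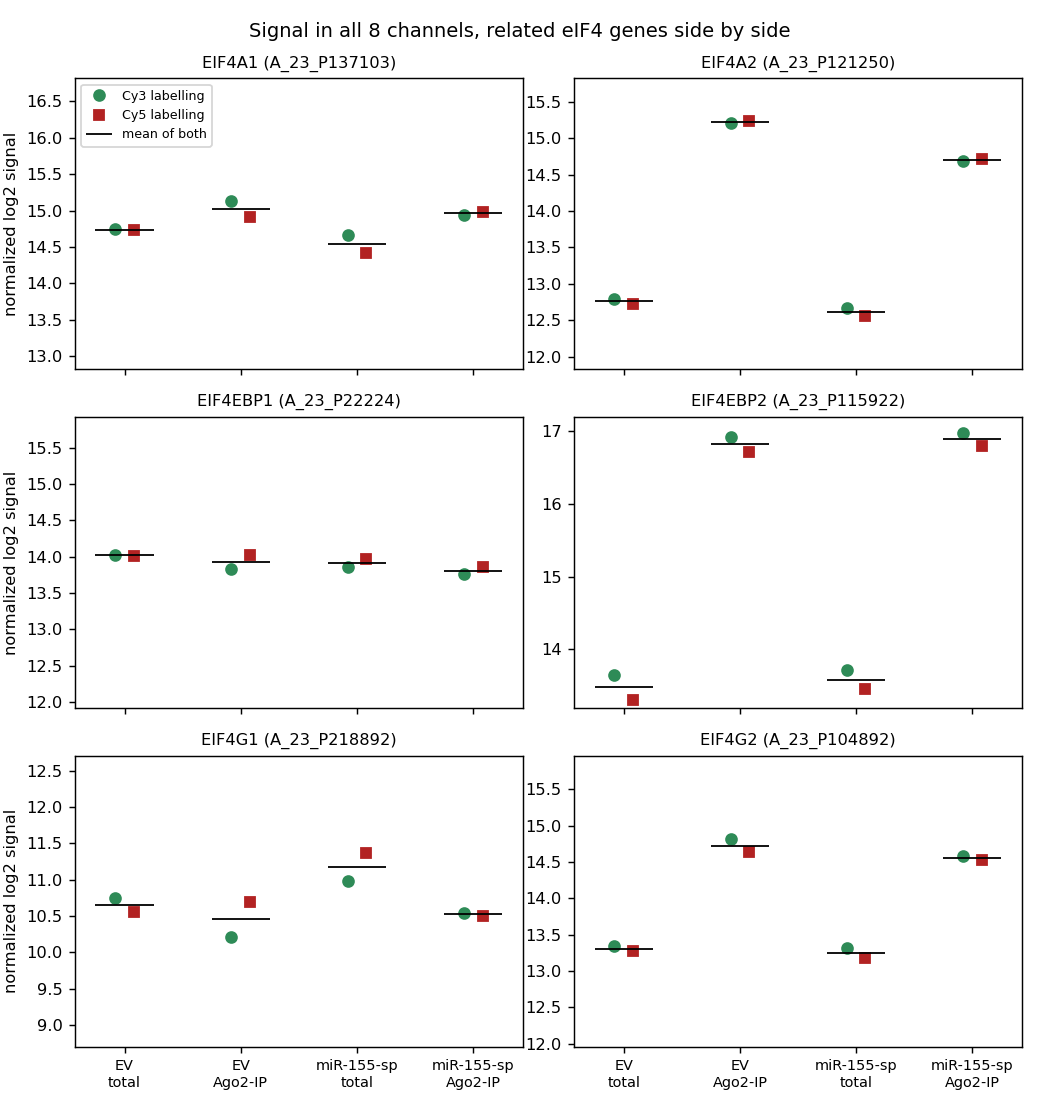
Normalized log2 signal (y axis, each panel spanning the same number of log2 units) of 1 probe each for EIF4A1, EIF4A2, EIF4EBP1, EIF4EBP2, EIF4G1 and EIF4G2 in the 4 groups (x axis). Circles are Cy3 labellings, squares Cy5 labellings and bars their mean. In the right column the Ago2-IP signals stand above the total RNA signals in both populations, and in the left column they stand within 1 log2 unit of them.

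Of the scaffold genes, EIF4G2 (also known as DAP5), whose protein lacks the eIF4E-binding region, was the enriched one. Its log2 signals were 13.35 and 13.27 in EV total RNA and 14.81 and 14.64 in the EV Ago2-IP, giving an IP/T ratio of 2.67 (2.45 and 2.91), and the ratio in sponge cells was 2.47 (2.30 and 2.64). EIF4G1, the main scaffold, had ratios of 0.871 (0.962 and 0.788) and 0.637 (0.716 and 0.566). The 2 probes of EIF4G3 gave 0.807 and 0.924 in EV cells, the latter being well above background in only 4 channels.

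The cap-binding gene EIF4E was above 1 with all 3 probes, at 1.54, 1.09 and 1.69 in EV cells and 1.81, 1.68 and 2.19 in sponge cells. Its probe A_23_P118649 lay on both sides of 1 in EV cells (1.47 and 0.810). EIF4E2, which encodes a cap-binding protein of translational repression, had ratios of 1.31 (1.36 and 1.26) and 1.13 (1.17 and 1.1). EIF4E3 was dim, and its orientations fell on both sides of 1 in EV cells (0.604 and 1.69).

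The cofactors that stimulate the eIF4A helicase had ratios below 1. All 5 probes of EIF4B had ratios between 0.371 and 0.523 in EV cells and between 0.414 and 0.639 in sponge cells, and all were below 1 in every orientation. Probe A_24_P218970 of EIF4B was below 0.5 in both orientations in EV cells (0.316 and 0.434). The 3 probes of EIF4H had ratios from 0.679 to 0.725 in EV cells and from 0.507 to 0.648 in sponge cells. Over the whole eIF4F group of 24 probes the median log2 IP/T was -0.05, with 3 probes at a ratio of 2 or above and 1 at 0.5 or below, so its middle value hides a wide spread between genes.

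The eIF2 side of initiation lay below 1, over a range of values. All 7 retained probes of EIF2S1, EIF2S2, EIF2S3 (the alpha, beta and gamma subunits of eIF2), EIF2A and EIF2D (factors that can deliver tRNA without eIF2) had IP/T below 1 in both orientations in EV cells (background 51.6%). Their median log2 was -0.57, with a range from -1.20 to -0.16, and both ends were probes of EIF2S2. With normexp, loess and Aquantile the 2 EIF2S2 probes were at -0.44 and 0.07. All 5 probes of eIF2B, EIF2B1 to EIF2B5, were below 1 in both orientations in EV and in sponge cells (background 51.6% and 51.9%), with ratios of 0.694, 0.600, 0.516, 0.720 and 0.675 in EV cells. In sponge cells 6 of the 7 eIF2 and tRNA delivery probes stayed below 1 in both orientations (background 51.9%), the exception being EIF2S1 probe A_24_P356015 (0.812 and 1.14).

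The kinases that phosphorylate eIF2 alpha had lower and middling ratios. EIF2AK4 (GCN2, which senses amino acid shortage) had ratios of 0.498 (0.437 and 0.568) in EV cells and 0.368 (0.344 and 0.394) in sponge cells. Its IP signal in sponge cells was well above background in only 1 labelling. With normexp, loess and Aquantile its log2 IP/T in EV cells was -0.17. EIF2AK1 (HRI, which senses heme shortage) gave 0.888 (1.18 and 0.668) and 0.840 (1.06 and 0.666), with its orientations on both sides of 1. EIF2AK2 (PKR, which senses double-stranded RNA) gave 0.904 (0.838 and 0.974) and 1.1 (1.02 and 1.20). EIF2AK3 (PERK, the kinase of endoplasmic reticulum stress) was well above background in 4 channels but differed by more than 2-fold between labellings, so no ratio is given.

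The eIF1 group stood higher, with a median log2 IP/T of 0.41 over 9 probes, of which 6 were above 1 in both orientations in EV cells (background 32.6%). EIF1, which guards the choice of start codon, had ratios of 1.33 and 1.27 with its 2 probes, and its relative EIF1B 1.32 (1.19 and 1.48). The 3 probes of EIF1AX, which encodes eIF1A, disagreed, with ratios of 1.35 (1.16 and 1.56), 0.710 (0.553 and 0.911) and 2.40 (2.84 and 2.03). The probes of EIF1AD, a gene named for its eIF1A domain, lay at opposite ends, at 2.81 (3.23 and 2.45) for A_32_P749354 and 0.458 (0.375 and 0.558) for A_23_P127467. No ratio is given for EIF1AY, the near-identical copy of EIF1AX, and probes of EIF1AX may also capture its transcript.

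In eIF3, the large scaffold of the small subunit, no probe of 21 reached a ratio of 2 in EV cells. The 13 subunits spread on both sides of 1, with 10 probes below (background 51.6%) and 8 above it (background 32.6%) in both orientations and a median log2 of -0.26. At the low end, EIF3L probe A_23_P57521 gave log2 signals of 13.86 and 13.96 in EV total RNA and 12.36 and 12.30 in the EV Ago2-IP. Its IP/T ratio was 0.335 (0.341 and 0.329) in EV cells, the lowest of all factor probes, and 0.378 (0.384 and 0.371) in sponge cells. The other EIF3L probe gave 0.451 and 0.438.

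At the high end, the 3 probes of EIF3E had ratios of 1.88, 1.79 and 1.63 in EV cells and 1.95, 2.55 and 1.59 in sponge cells. EIF3F followed with 1.38 and 1.29 in EV cells. EIF3A, the largest subunit, had 0.689 (0.491 and 0.966), and EIF3H 0.769 (0.677 and 0.874). EIF3C has a near-identical copy in the genome, so its ratios of 0.818 and 0.684 may include both.

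Of the late factors, EIF5B, the GTPase of subunit joining, had a ratio of 1.82 (1.83 and 1.82) in EV cells and 1.80 (2.00 and 1.61) in sponge cells. EIF5, which activates the GTPase of eIF2, was again split between probes, with 2.50 (2.29 and 2.74) for A_24_P415959 and 0.981 (1.01 and 0.954) for A_23_P205265. EIF6, which keeps the large subunit apart until it is mature, had 0.646 (0.609 and 0.686). EIF5A, which helps ribosomes through difficult peptide bonds, had 0.675 and 0.676 with its probes, and transcripts of its close copies may add to both.

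The elongation factors mostly had ratios below 1. In eEF1, 14 of 18 probes were below 1 in both orientations in EV cells (background 51.6%) and 3 above (background 32.6%). Of these 14, 7 were probes of EEF1D and 4 of EEF1A1, and 2 of the 18 were at 0.5 or below (background 12.9%). The same counts, 14 and 3, were found in sponge cells, with median log2 values of -0.52 in EV and -0.48 in sponge cells. EEF1A1, the main carrier of aminoacyl-tRNA, had ratios between 0.451 and 0.668 over its 4 probes in EV cells and between 0.386 and 0.562 in sponge cells. Its probe A_24_P763243 gave log2 signals of 18.50 and 18.72 in EV total RNA and 17.58 and 17.34 in the EV Ago2-IP. EEF1A1 has many processed copies in the genome, so its probes may capture more than 1 transcript. EEF1A2, the related isoform of muscle and nerve, had 0.691 (0.814 and 0.586).

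The subunits of the exchange factor that recharges eEF1A did not move as a block. EEF1D had ratios from 0.445 to 0.721 over 7 probes in EV cells, and EEF1B2 0.728 and 0.721. EEF1G, in contrast, had 1.18, 1.21 and 1.39, of which A_23_P13344 lay on both sides of 1 (0.994 and 1.40). EEF1E1, which belongs to the tRNA synthetase complex, had 1.45 (1.37 and 1.53). EEF2, the translocase, had 0.663 (0.597 and 0.737), and its kinase EEF2K, which switches it off, had 0.648 (0.709 and 0.593).

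Among the methyltransferases of elongation factors, EEF1AKMT4, which methylates a lysine of eEF1A, had the highest ratio. Its log2 signals were 13.78 and 13.60 in EV total RNA and 16.12 and 16.13 in the EV Ago2-IP, and in sponge cells 13.71 and 13.57 against 16.18 and 15.89. The IP/T ratio was 5.40 (5.08 and 5.74) in EV cells and 5.26 (4.52 and 6.12) in sponge cells. The fractions did not overlap. The locus also makes a read-through transcript with its neighbour ECE2, and the 2 probes assigned to that transcript were not above background in any channel. EEF1AKMT1 had 0.503, EEF1AKMT2 1.05, EEF1AKMT3 0.847 and EEF2KMT 1.06 in EV cells.

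A list of 9 factor genes known for mRNAs that begin with a terminal oligopyrimidine (TOP) tract, the element through which mTOR controls the synthesis of the translation machinery, was set beside the other factors. It holds EEF1A1, EEF1B2, EEF1D, EEF1G, EEF2, EIF3E, EIF3F, EIF3H and EIF4B. In EV cells its 28 probes had a median log2 IP/T of -0.52, with 0 probes at a ratio of 2 or above, 3 at 0.5 or below and 20 below 1 in both orientations (background 14.8%, 12.9% and 51.6%). The other 76 factor probes had a median of -0.19, with 9, 5 and 40 probes in these classes. EEF1G, EIF3E and EIF3F were the list's genes above 1. Probes of a gene are not independent, and EEF1D alone gives 7 of the 28.

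The annotated start sites were searched for this element in RefSeq promoters of GRCh38.p14, as a C at the start followed by at least 4 further C or T on the coding strand. Of the 7 promoters held for the list 5 had it (71.4%), in EEF1A1, EEF1B2, EEF2, EIF3F and EIF4B. EEF1B2 also had a promoter without it, and no promoter was held for EEF1D, EIF3E and EIF3H. Of the 58 promoters of the other factors 7 had it (12.1%), in EIF2A, EIF2D, EIF2S3, EIF3D, EIF3K, EIF3M and EIF4A2. The share was 5.81% of 11369 promoters of all retained genes and 4.07% of all 35116 promoters. The match says only that these letters are at the annotated start. EIF4A2, among the most enriched genes, and EIF4B, among the most depleted, both carried it.

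Where a gene had several probes, they often but not always gave 1 answer. Of 25 genes with more than 1 retained probe, 17 had all probes within 0.5 log2 units in EV cells. The median spread, as highest minus lowest probe of a gene, was 0.24 log2 units. The median SD between dye orientations of a probe was 0.19, a different measure that cannot be set directly against a range. For EIF1AD, EIF1AX, EIF3K and EIF5 the probes lay on both sides of 1. For EEF1A1, EEF1D, EIF1AD, EIF1AX, EIF2S2, EIF4B and EIF5 they lay on both sides of a 2-fold line, in EIF2S2 with 0.437 and 0.895. No share over all genes with several probes is given, so these counts have no background. Where on the transcript each probe lies was not analysed here, so isoforms and probe behaviour cannot be told apart.

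**Figure D3:**
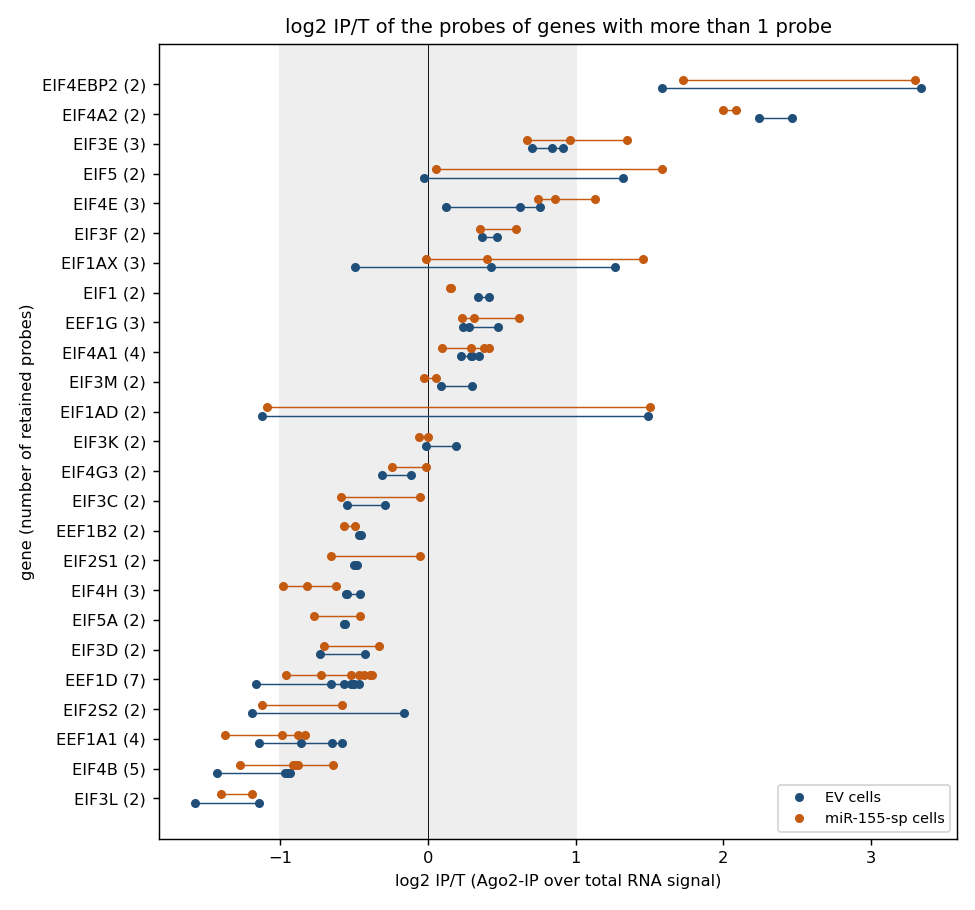
Log2 IP/T (x axis) of every retained probe of the 25 genes with more than 1 probe (y axis, number of probes in brackets), ordered by their mean in EV cells. Points are probes (EV blue, miR-155-sp orange), lines join the probes of a gene, and the grey band spans ratios of 0.5 to 2. Both probes of EIF4A2 and of EIF4EBP2 lie right of the band, whereas the probes of EIF1AD lie on opposite sides of it.

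The IP/T ratios of the factors were much alike in EV and sponge cells. Across the 104 probes, log2 IP/T in EV and in sponge cells had a Pearson r of 0.96 (all retained probes 0.96), a description over probes that share arrays and genes. No factor probe differed by 2-fold or more between the populations (background 1.45%). A difference of 1.5-fold or more, higher in sponge cells, was seen for 2 probes (1.92%, background 3.99%), and lower for 0 (background 3.55%). In both orientations 40 probes were higher in sponge cells (38.5%, background 30.6%) and 36 lower (34.6%, background 30.3%). The median difference was 0.03 log2 units (all probes -0.0025), but it was 0.01109 and 0.001088 in the single orientations, -0.001771 with Cy5 labellings alone and 0.09921 (all probes 0.055) with a common median, so it has no settled direction. In 35 of the 103 probes with a value given, the difference exceeded the SD between orientations of both populations. That SD rests on 2 values, and no share over all probes is given, so this count has no background.

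**Figure D4:**
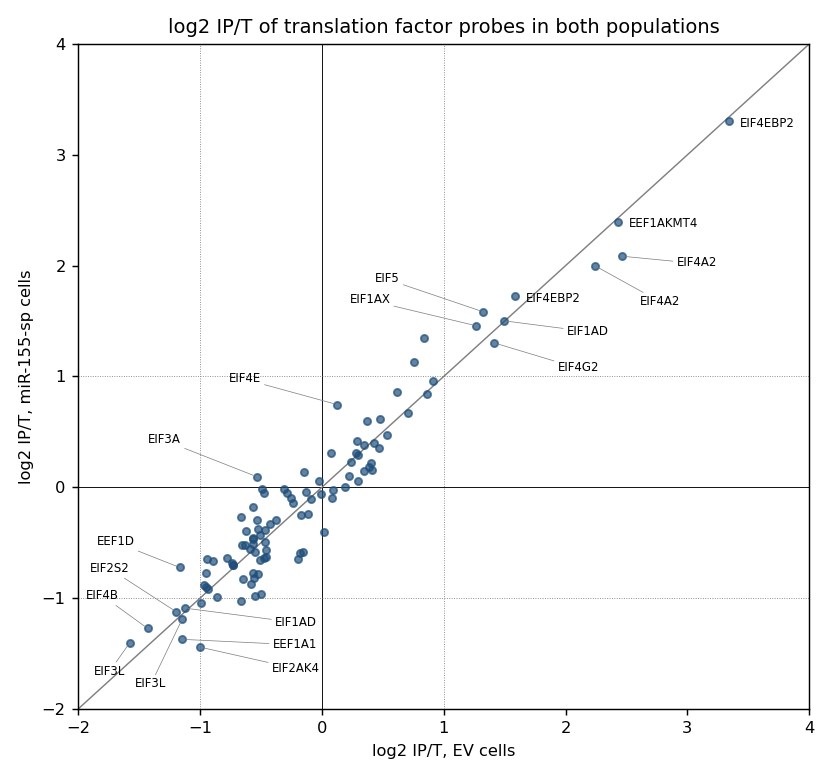
Log2 IP/T in EV cells (x axis) against sponge cells (y axis) for 103 retained factor probes, with the line of equality and dotted lines at ratios of 0.5 and 2. Named are the probes at or past 2-fold in EV cells and the 2 that differed by at least 1.5-fold between populations, EIF3A and EIF4E, which lie above the line.

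The largest positive difference was that of EIF3A, whose IP/T went from 0.689 in EV to 1.07 in sponge cells, or 0.63 log2 units (0.71 and 0.55). Its total RNA signals were 12.41 and 11.93 in EV and 11.92 and 11.37 in sponge cells, and its IP signals 11.88 and 11.38 against 11.88 and 11.60. The difference lay in total RNA, which was lower by 0.49 (Cy3) and 0.55 (Cy5) log2 units, while the IP signal was higher by 0.11 on average.

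EIF4E probe A_23_P118649 was the other, at 0.62 (0.50 and 0.75), with total RNA at -0.50 (-0.15 and -0.84) and IP at 0.13. The other EIF4E probes gave 0.24 (0.52 and -0.04) and 0.37 (0.35 and 0.40), and their total RNA was at -0.09 and -0.33. All 3 probes thus had a higher mean IP/T in sponge cells, by different amounts. EIF3E probe A_24_P206427 (0.51), EIF1AX probe A_23_P35194 (0.48) and EEF1D probe A_32_P65943 (0.44) came next. Other probes of the same genes did not share these values, with 0.05 and -0.04 for EIF3E, -0.03 and 0.19 for EIF1AX, and between -0.46 and 0.14 for EEF1D.

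MiR-155 targets would be looked for among factors with a lower IP/T in sponge cells. Among factor probes detected in all 8 channels, the 5 lowest differences were those of EEF1D probe A_23_P31840 (-0.46), EIF4G1 (-0.45), EIF4H probe A_24_P149390 (-0.43), EIF2S2 probe A_24_P48791 (-0.43) and EIF4A3 (-0.41), all negative in both orientations and all below 1.5-fold. Of the dimmer retained probes, EIF2AK4 in 7 channels had -0.44 (-0.35 and -0.53) and EIF4E3 in 4 channels -0.42 (-0.01 and -0.83). None of the 5 bright probes was enriched in EV cells, where their ratios were between 0.682 and 0.895. For EIF4H the other probes were also lower, at -0.26 and -0.16. The other EIF2S2 probe was not, at 0.07 (0.37 and -0.23), and the other EEF1D probes were between 0.07 and 0.44. For EIF4G1 the IP signal was higher by 0.07 and total RNA by 0.52 log2 units.

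Of the 9 probes enriched in EV cells, EIF4A2 had the lowest differences. They were -0.38 (-0.40 and -0.36) for A_23_P121250 and -0.25 (-0.25 and -0.24) for A_32_P110751. Here the difference lay in the IP fraction, in which the log2 signal was lower by 0.52 in both labellings of the first probe and by 0.30 and 0.35 in those of the second. Total RNA was at -0.14 and -0.08. The IP difference of A_23_P121250 was the lowest of all factor probes. The other enriched probes differed by -0.11 (EIF4G2), -0.04 and 0.14 (EIF4EBP2), -0.04 (EEF1AKMT4), 0.01 (EIF1AD), 0.19 (EIF1AX) and 0.26 (EIF5).

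**Figure D5:**
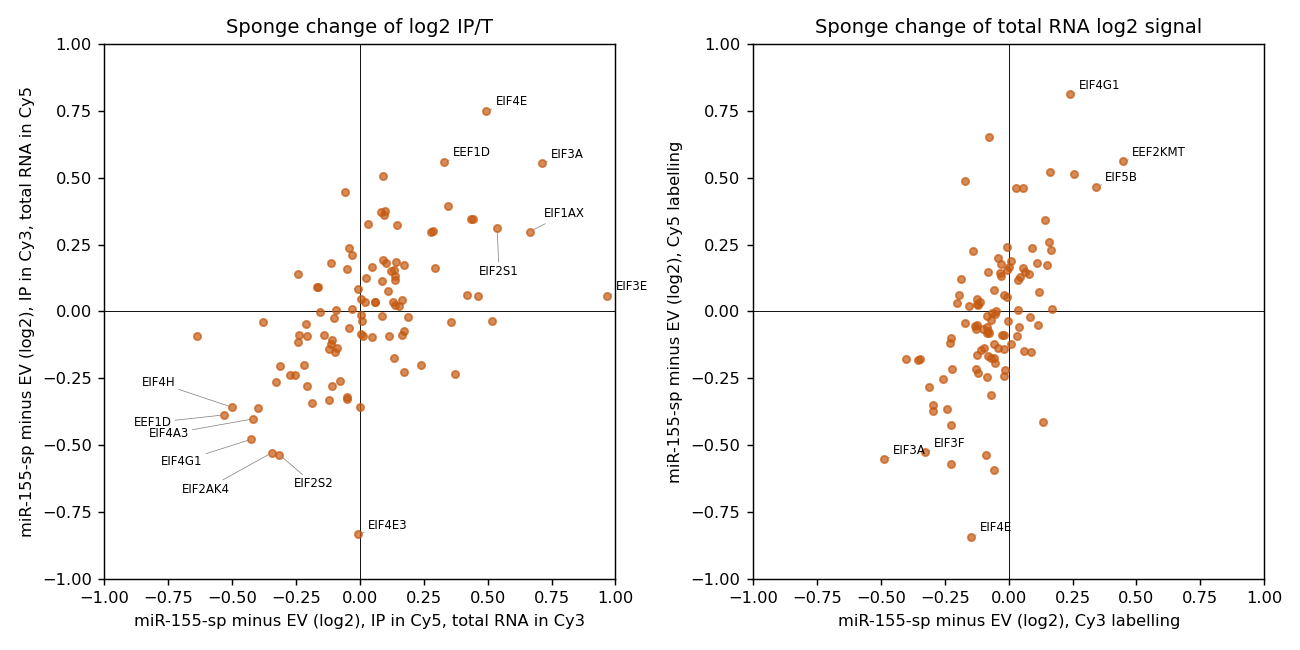
Difference between miR-155-sp and EV cells in log2 units for 103 retained factor probes, left for log2 IP/T with one dye orientation per axis and right for total RNA with one labelling per axis. Named are probes whose mean of both axes is at least 0.4 in size. No mean reaches 1, and EIF3A and EIF4E lie at the upper right on the left and at the lower left on the right.

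In total RNA more factor probes were lower than higher in sponge cells. The signal was lower in both labellings for 50 of 104 probes (48.1%, background 32.9%) and higher for 22 (21.2%, background 32.4%), with a median of -0.05 log2 units (all probes 0.00013). With a common median in all channels that median was -0.01. No probe differed by 1.5-fold or more (background 3.6%). Lowest among those detected in all 8 channels were EIF3A (-0.52), EIF4E probe A_23_P118649 (-0.50), EIF3F probe A_24_P395042 (-0.43), EEF1AKMT3 probe A_23_P320878 (-0.40) and EIF4E probe A_24_P349560 (-0.33). Highest were EIF4G1 (0.52), EEF2KMT (0.50), EIF5B (0.40), EIF1AD probe A_23_P127467 (0.39) and EIF2B4 (0.34). In eIF3, 13 of 21 probes had a higher IP/T in both orientations in sponge cells (background 30.6%) and 5 a lower one (background 30.3%), and the median of their total RNA was -0.08.

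Total RNA enters the IP/T ratio with a negative sign, so the Pearson r of -0.67 over probes between both differences (all probes -0.62) follows in part from the construction. In the IP fraction itself 27 probes were higher in both labellings (26%, background 30.5%) and 39 lower (37.5%, background 32.6%), and 0 differed by 1.5-fold (background 3.62%). With 1 RNA per group, a difference between cell populations cannot be told apart from one between RNA preparations.

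Other genes of the pathway that the symbol rule does not catch were taken from a list of 31 symbols, of which 26 genes with 44 probes were on the array and 25 with 40 probes were retained. In EV cells 12 of these 40 probes had a ratio of 2 or above (background 14.8%) and 0 were at 0.5 or below (background 12.9%), with a median log2 IP/T of -0.04. The 12 probes at 2 or above came from 5 genes, MKNK2, DDX3X, RPS6KB1, PPP1R15B and PDCD4. MKNK2, a kinase of eIF4E, had ratios of 3.39, 11 and 5.37 with its probes, and MKNK1, its relative, 0.761 (1.08 and 0.537). RPS6KB1, the S6 kinase, had 2.78, 2.64 and 8.55, and PPP1R15B, which directs the phosphatase of eIF2 alpha, 3.45 (3.42 and 3.49). PDCD4, an inhibitor of eIF4A, had 2.75 (2.38 and 3.18) with its retained probe, and the helicase DDX3X between 2.60 and 3.78 over 4 probes. PABPC1, the poly(A)-binding protein, was above 1 with all 3 probes, the lowest at 1.43, and LARP1, which binds TOP mRNAs, between 0.594 and 0.719. These genes were described by their values alone, and their difference from the factors was not tested.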

How the data were processed

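Per the file headers, the authors' spot intensity values were made with Agilent Feature Extraction 10.7.3.1 (10.5.1.1 in the submitters' processing notes), which subtracted the background and normalized the dyes. A table of log2 values that the authors deposited, quantile-normalized in GeneSpring GX 12.5 according to the study's methods, served as an alternative. Array probes were designed on hg18, so no gene coordinates are given.

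Control spots and outlier spots (74 to 100 gene spots per channel) were left out here. No spot was saturated. As in the study's methods, log2 processed signals, averaged per probe, were quantile-normalized over the 8 channels of the 4 arrays. Probes well above background in at least 4 channels and within 2-fold between labellings were kept, and both labellings were averaged as 1 sample, also after those methods. This normalization hides any difference between whole fractions, and background compresses the ratios of dim probes. The share of gene spots well above background was 58.9% to 61.9% in Cy3 channels and 38.8% to 43.4% in Cy5 channels, and the number of arrays limits the precision. Probes were named by matching their RefSeq or Ensembl identifiers to RefSeq genes of GRCh38.p14, where 23958 of 41000 probes matched, 72.5% of the retained ones.

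The members, the gene lists and the rule for named genes were chosen with earlier results of these data known. Named were, per role group, every gene or the extremes, the 10 highest and 10 lowest EV IP/T, the 5 largest differences in each direction among probes detected in all 8 channels, and the paralogs, TOP genes and disagreeing probes, some as ranges. Counts past 2-fold stand in place of tests. "Background" is the share of all 17912 retained probes past the same limit. The B-cell marker list is not reported here. No level is given for the Y-linked EIF1AY, which is counted but not drawn. The alternatives were other normalizations, background corrections (normexp, offset 50) and filters, single labellings and orientations, arithmetic means and 1 value per gene. Python 3.11.15, numpy 2.4.6, pandas 2.3.3, R 4.3.3 and limma 3.58.1 were used, and the code was tested on simulated data.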

Additional observations from a re-analysis of the deposited data

Results flagged for a closer look

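EIF2AK2, the kinase PKR, was the only one of 103 factor probes whose IP/T lay on opposite sides of 1 in EV and sponge cells in both dye orientations. In EV cells the ratio was 0.838 and 0.974, below 1. In sponge cells it was 1.02 and 1.20. The values 0.974 and 1.02 lie close to 1, a point that the normalization sets. No share of all retained probes is given for this rule, so the count has no background. The difference was 0.2874 log2 units, and it was not tested, since each group is 1 RNA. The IP signal was higher in sponge cells by 0.24 (Cy3) and 0.15 (Cy5) log2 units, and total RNA was at -0.13 and -0.05.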

How the results depend on the processing

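Each group is 1 RNA, so the alternatives show only the processing. The median log2 IP/T of the factor probes in EV cells, -0.34, was -0.3913 when channels were set to a common median, -0.1109 with normexp, loess and Aquantile, -0.2379 with normexp and quantile normalization, -0.4087 with the deposited values, -0.4045 and -0.3786 with at least 6 and all 8 channels above background, -0.2999 without the agreement filter, -0.3786 with agreement within 1.5-fold, -0.2968 with IP in Cy3 alone and -0.2546 with 1 value per gene. In sponge cells, -0.26 became -0.03389 and -0.1412 under the normexp settings, -0.2834 without the agreement filter and -0.2912 with IP in Cy5 alone. The median difference of IP/T, 0.03, was 0.09921 with a common median (all probes 0.055), 0.007926 and 0.01067 under the normexp settings, 0.01109 and 0.001088 with IP in Cy5 and in Cy3 alone, and 0.04959 with 1 value per gene. The median total RNA difference, -0.05, was -0.01242 with a common median and -0.03086 with normexp, loess and Aquantile. Probes at 0.5 or below, 8 in EV and 9 in sponge cells, numbered 2 and 2 with normexp, loess and Aquantile, 4 and 5 with normexp and quantile normalization, 16 in sponge cells with IP in Cy5, and 3 and 5 as genes. Genes at 2 or above numbered 4 and 4. Leaving out 1 labelling at a time gave medians from -0.3204 to -0.2923 in EV cells, from -0.2606 to -0.2472 in sponge cells, from -0.001771 to 0.02956 for the difference and from -0.0578 to -0.04093 in total RNA. Counts at 2 or above were then between 9 and 10 in EV and 11 and 14 in sponge cells, and those at 0.5 or below between 10 and 11 and between 6 and 12. The cause of these shifts was not tested. Of 450 values of log2 IP/T of named probes in EV cells under the alternatives, 394 stayed within the spread between orientations and 56 moved further, none with a change of side among values past 2-fold. For the sponge difference 374 stayed and 76 moved, and 47 had the opposite sign to the main value. No paired analysis was possible because each group is 1 RNA and replicate numbers name dyes.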

Other observations

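The 4 factor probes that differed by more than 2-fold between labellings were 1 probe each of EEF1AKMT3, EIF2AK3, EIF4E3 and EIF5, or 3.70% of the 108 factor probes against 20.5% of all probes above background. They were dim, being above background in 4 or 5 of 8 channels. For the EIF4E3 probe A_24_P943113 the IP/T ratio in EV cells was 0.242 on the array with IP in Cy5 and 2.97 on the dye-swapped one. The EIF5 probe A_24_P398810 had ratios of 1.02 and 3.22 in sponge cells. Of the factor probes below detection, EEF2K probe A_23_P140792 was above background in 0 channels, and the EIF2A and EIF4E probes A_32_P197524 and A_32_P176066 in 2 each, while other probes of these 3 genes were retained.

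Among the other translation genes, RPS6KB1 probe A_24_P497226 had the highest IP/T difference between the populations, with 8.55 in EV cells (9.78 and 7.47) and 17.4 in sponge cells (16.3 and 18.7), or 1.03 log2 units. It was above background in 6 channels, and the other RPS6KB1 probes differed by -0.10 and -0.08.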
